A study of Mus musculus with 2 samples.

Results

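The 6 hairpins described here form the paralogous miR-23/27/24 clusters of the mouse. Mir23a, Mir27a and Mir24-2 lie on chromosome 8, and Mir23b, Mir27b and Mir24-1 on chromosome 13. They were picked by name from the 2202 miRNA genes of the deposited tables, by a rule that uses no counts. Small RNA of heart tissue was sequenced in 2 libraries of 1 group, labelled as adult male of the 5xFAD/CAST strain at an age of 8 to 10 months. 5xFAD is a transgenic line whose transgenes are driven by the neuronal Thy1 promoter, and CAST is a wild-derived inbred strain. The labels name no genotype per sample and no untreated or control group. Replicates 1 and 2 have separate biosample entries but share 1 donor entry. The number of animals is not stated, so n = 2 counts libraries and the spread between them may be technical.

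MicroRNAs are short RNAs cut from a hairpin precursor, and a mature strand (arm) binds messenger RNAs mainly through its seed, bases 2 to 8. The miR-23, miR-27 and miR-24 families are expressed in endothelium, muscle and many other cells. They are known in the heart and its vessels for roles in blood vessel growth (miR-23 and miR-27), in lipid metabolism (miR-27) and in cardiomyocyte survival and growth (miR-23a and miR-24). The hairpins of a cluster are made from 1 primary transcript, and each mature miRNA is then processed and stabilised on its own.

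Each family has a hairpin in both clusters, and the sequences decide which reads can be told apart. On mm10, Mir23a (ENSMUSG00000065611.1) lies at chr8:84208518-84208592, Mir27a (ENSMUSG00000065444.1) at chr8:84208672-84208758 and Mir24-2 (ENSMUSG00000065541.1) at chr8:84208815-84208921. Mir23b (ENSMUSG00000065599.2) lies at chr13:63300484-63300557, Mir27b (ENSMUSG00000065475.2) at chr13:63300712-63300784 and Mir24-1 (ENSMUSG00000105904.1) at chr13:63301208-63301275. All 6 are on the plus strand and matched the RefSeq hairpin table (GRCm38.p6) by symbol, with the same coordinates as GENCODE M21. Each hairpin is shown 5′ to 3′, with the longest stretch it has in common with its paralog in capitals:
Mir23a: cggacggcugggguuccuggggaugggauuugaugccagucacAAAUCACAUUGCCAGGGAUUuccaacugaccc
Mir23b: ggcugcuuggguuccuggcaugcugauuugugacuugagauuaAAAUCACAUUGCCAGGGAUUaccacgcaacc
Mir27a: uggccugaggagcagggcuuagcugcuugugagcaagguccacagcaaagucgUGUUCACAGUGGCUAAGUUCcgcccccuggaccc
Mir27b: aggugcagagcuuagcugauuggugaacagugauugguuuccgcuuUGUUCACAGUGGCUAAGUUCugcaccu
Mir24-2: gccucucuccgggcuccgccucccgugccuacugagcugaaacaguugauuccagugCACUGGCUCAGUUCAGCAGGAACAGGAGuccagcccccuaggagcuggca
Mir24-1: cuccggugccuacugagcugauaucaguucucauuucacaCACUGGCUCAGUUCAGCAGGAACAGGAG

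The common stretch was 20 nt in the miR-23 pair, 20 nt in the miR-27 pair and 28 nt in the miR-24 pair. It covers the 3p arm from its first base in all 3 pairs. The mature arms below, from RefSeq, show the seed in capitals, and were chosen because they set the family and the reads that can be assigned:
mmu-miR-23a-3p: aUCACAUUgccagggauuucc
mmu-miR-27a-3p: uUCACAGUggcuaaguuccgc
mmu-miR-27b-3p: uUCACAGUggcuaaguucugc
mmu-miR-24-3p: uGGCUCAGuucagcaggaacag
mmu-miR-24-2-5p: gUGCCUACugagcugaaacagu
mmu-miR-24-1-5p: gUGCCUACugagcugauaucagu

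Counted from 1 at the 5′ end of the arm, miR-23a-3p differs from the Mir23b hairpin by U19A alone, and miR-27a-3p from the Mir27b hairpin by C19U alone. The first 18 bases of these arms are therefore the same at both loci, and a read that ends before base 19 fits both. miR-24-3p is identical in Mir24-1 and Mir24-2. The deposited tables keep reads with more than 1 alignment in a summary line outside all genes, so whole miR-24-3p reads could reach neither hairpin. The 5p arms of Mir24-1 and Mir24-2 differ from base 17 on and share the seed. The seeds of miR-23 and miR-27 were equal at 6 of 7 positions, and that of miR-24 matched neither at any position.

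The clusters share their order and differ in spacing and surroundings. The chromosome 8 cluster spans 404 bp, with gaps of 79 bp and 56 bp between hairpins, and the chromosome 13 cluster spans 792 bp, with gaps of 154 bp and 423 bp. In GENCODE M21 no protein-coding gene overlaps the chromosome 8 hairpins, and the last 2 bp of Mir24-2 overlap the lincRNA gene Gm26532. The chromosome 13 hairpins lie inside the protein-coding gene 2010111I01Rik, an aminopeptidase gene also known as Aopep, on its strand, and inside an intron of Fancc on the opposite strand. Mir23b is intronic in all 9 of the 2010111I01Rik transcripts that span it. Mir27b is exonic in 1 and intronic in 8, and Mir24-1 touches an exon in 4 and is intronic in 7. Both miR-24 hairpins have a miRNA gene annotated on the other strand, Mir3074-2 over Mir24-2 and Mir3074-1 over Mir24-1.

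**Figure D1:**
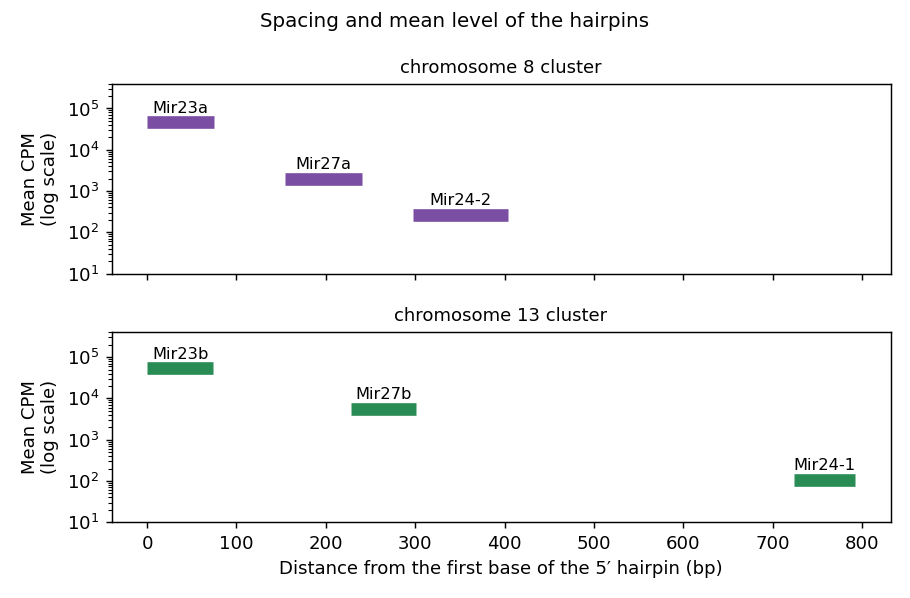
Position of each hairpin as distance from the first base of the 5′ hairpin (bp, horizontal bars drawn to scale) against its mean level over 2 libraries (CPM, log axis). In both clusters the level of assigned reads falls in genomic order from the miR-23 hairpin to the miR-24 hairpin. Whole reads of the arm that both miR-24 hairpins share are not in these levels, so the last step is no measure of output. The chromosome 13 cluster (792 bp) is longer than that on chromosome 8 (404 bp).

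The tables held 3889280 sense counts in replicate 1 and 5058613 in replicate 2. Levels are given in CPM, counts per 1000000 of these totals. Reads with more than 1 alignment made up 42.3% and 46.8% of all reads. They are counted for no gene, so a hairpin whose arm is also found at another locus can be undercounted. The sums of cell type markers below cover assigned reads only and do not rank the cell types. The 7 heart muscle markers had a summed level of 6776 CPM in replicate 1 and 7481 CPM in replicate 2, with members higher in either library. Mir208a had 3885 and 1485 CPM and Mir499 had 2732 and 5888 CPM, while the 4 miR-1a and miR-133a hairpins had 0.988 to 43.9 CPM. How many of the set-aside reads came from these 4 hairpins is not recorded in the tables. Among markers of other cells, the endothelial list had summed levels of 87116 and 87788 CPM and the smooth muscle list 30137 and 41748 CPM. Nearly all of the endothelial sum was Mir126a (87115 and 87787 CPM), as Mir126b had 1.54 and 0.791 CPM. Most of the smooth muscle sum was Mir143 (28674 and 40225 CPM). Mir145a had 1463 and 1522 CPM, and Mir145b had 0.257 and 0.593 CPM. The red cell list had 320 and 217 CPM (Mir451a 288 and 165 CPM, Mir144 32.1 and 52.4 CPM), the leukocyte list 1957 and 1789 CPM, and the single liver marker, Mir122, 28.8 and 27.1 CPM. The 6 brain markers had 0 counts in replicate 1 and 4 in replicate 2. Their part in the results below was not tested. In tissue RNA, more cells of a type and more RNA per cell cannot be told apart.

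The miR-23 hairpins had the most assigned reads in both clusters. Reads with more than 1 alignment are outside these counts, so this order does not measure the output of each hairpin. Mir23b had 229823 sense counts in replicate 1 and 247746 in replicate 2, or 59091 and 48975 CPM, a mean of 54033 ± 7153 CPM (SD, n = 2). Mir23a had 219108 and 179413 counts, or 56336 and 35467 CPM, a mean of 45902 ± 14757 CPM (SD, n = 2). Mir23b was above Mir23a within each library, while the ranges of the hairpins over the libraries overlapped, because Mir23a in replicate 1 exceeded Mir23b in replicate 2. Mir23b ranked 6 and 8 among all 2202 miRNA genes, and Mir23a ranked 7 and 10.

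The miR-27 hairpins were lower than the miR-23 hairpins in both libraries. Mir27b had 17201 and 33662 counts, or 4423 and 6654 CPM, a mean of 5539 ± 1578 CPM (SD, n = 2). Mir27a had 6019 and 12150 counts, or 1548 and 2402 CPM, a mean of 1975 ± 604 CPM (SD, n = 2). The ranges of Mir27b and Mir27a did not overlap, and replicate 2 was the higher library for both. Their ranks were 30 and 22 for Mir27b, and 47 and 37 for Mir27a.

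The miR-24 hairpins were the lowest of their clusters. Mir24-2 had 978 and 1400 counts, or 251 and 277 CPM, a mean of 264 ± 17.9 CPM (SD, n = 2). Mir24-1 had 389 and 575 counts, or 100.02 and 114 CPM, a mean of 107 ± 9.65 CPM (SD, n = 2). Their ranges did not overlap each other or those of the other hairpins. Since whole miR-24-3p reads could be given to neither gene, these counts come from the remaining reads, and how many of the set-aside reads were miR-24-3p is not recorded in the tables. They are no measure of how much miR-24 the tissue held.

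**Figure D2:**
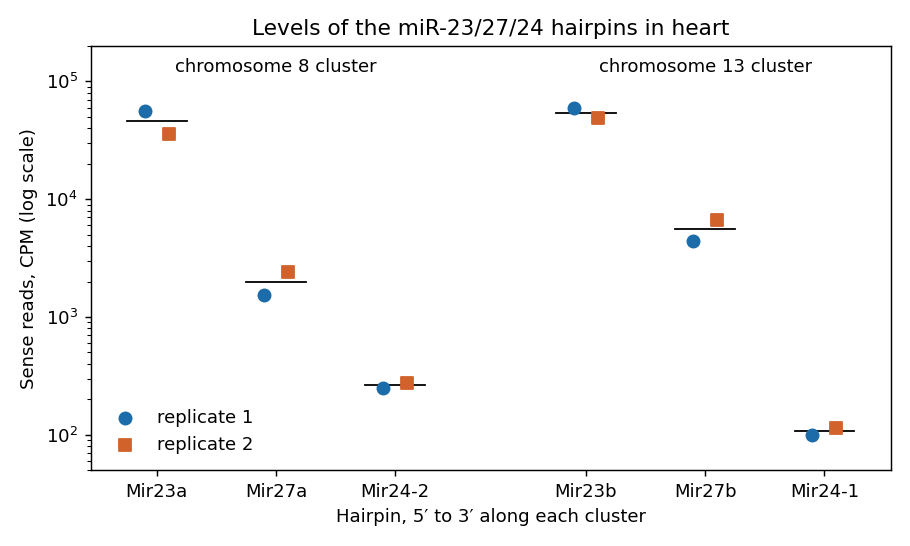
Level of each hairpin in replicate 1 (circles) and replicate 2 (squares) as CPM of sense counts on a log axis, in 5′ to 3′ order along each cluster, with the mean of both libraries as a line. The miR-23 hairpins lie between 35467 and 59091 CPM, the miR-27 hairpins between 1548 and 6654 CPM and the miR-24 hairpins between 100.02 and 277 CPM.

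The order of the 6 levels by mean was Mir23b, Mir23a, Mir27b, Mir27a, Mir24-2 and Mir24-1, and it was the same in each library. A small RNA read comes mostly from a mature strand and not from the whole hairpin, so CPM was not divided by length. Divided by hairpin length (68 to 107 nt) and rescaled to the same total, the means were 56566, 47395, 5882, 1760, 191 and 122 in the same order.

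Together the 6 hairpins took 12.2% of sense counts in replicate 1, with a 95% Clopper-Pearson interval of 12.1% to 12.2%. They took 9.39% in replicate 2, with an interval of 9.36% to 9.41%. The mean was 10.8% ± 1.97 (SD, n = 2). The chromosome 13 cluster held 6.36% and 5.57%, and the chromosome 8 cluster 5.81% and 3.81%. The chromosome 13 cluster was thus the larger in each library. The miR-23 pair alone accounted for 11.5% and 8.44% of sense counts, the miR-27 pair for 0.597% and 0.906%, and the miR-24 pair for 0.0351% and 0.0390%.

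The division of assigned reads between the clusters differed by family. Of the reads assigned to the miR-23 pair, the chromosome 8 hairpin Mir23a held 48.8% (95% interval 48.7 to 49.0) in replicate 1 and 42.0% (41.9 to 42.1) in replicate 2, on average 45.4% ± 4.81 (SD, n = 2). Of the miR-27 pair, Mir27a held 25.9% (25.4 to 26.5) and 26.5% (26.1 to 26.9), a mean of 26.2% ± 0.424 (SD, n = 2). Of the miR-24 pair, Mir24-2 held 71.5% (69.1 to 73.9) and 70.9% (68.8 to 72.9), a mean of 71.2% ± 0.465 (SD, n = 2). The intervals of the libraries overlapped for the miR-27 and miR-24 pairs and not for the miR-23 pair. The chromosome 8 share was lowest for miR-27, intermediate for miR-23 and highest for miR-24, and the intervals of the 3 families did not overlap in either library. The miR-23 and miR-27 shares rest on reads that reach base 19 of the 3p arm or come from the 5p arm. With 1 mismatch allowed, miR-23a-3p, miR-27a-3p and miR-27b-3p each fit 2 hairpins. How mismatches were handled in the assignment of reads is not given. The miR-24 share leaves out whole 3p arm reads. The shares of the 3 families thus rest on unlike reads and do not measure the output of each locus.

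**Figure D3:**
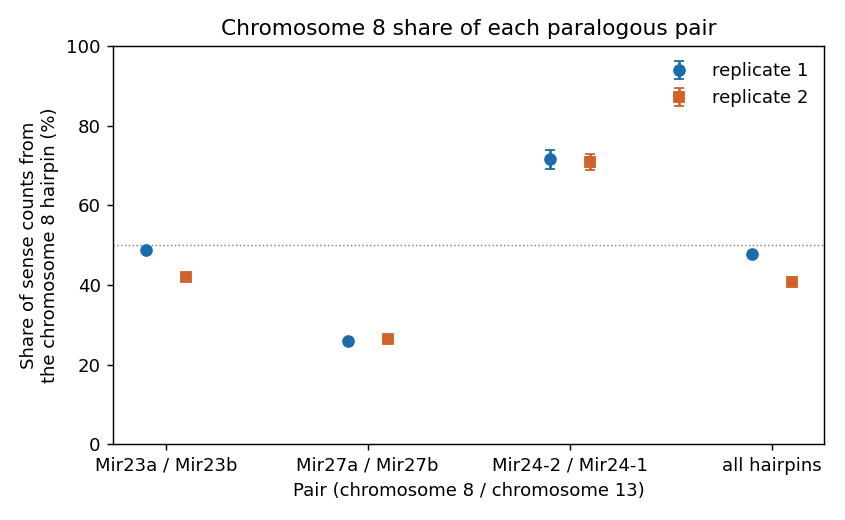
Share of sense counts (%) that came from the chromosome 8 hairpin of each pair, in replicate 1 (circles) and replicate 2 (squares), with 95% Clopper-Pearson intervals, which are smaller than the symbols for all but the miR-24 pair; the dotted line marks equal counts and the points on the right are for all 6 hairpins. The miR-27 pair lies at 25.9% and 26.5% and the miR-24 pair at 71.5% and 70.9%, while the miR-23 pair lies at 48.8% in replicate 1 and 42.0% in replicate 2.

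Neighbouring hairpins within a cluster were far from equal in assigned counts. Whole miR-24-3p reads are missing from the miR-24 counts, and 3p reads that end before base 19 from those of miR-23 and miR-27. The ratios therefore compare assigned reads and do not measure the output of each hairpin. Mir23a exceeded Mir27a 36.4 to 1 in replicate 1 (95% exact interval 35.5 to 37.4) and 14.8 to 1 in replicate 2 (14.5 to 15.0). Mir23b exceeded Mir27b 13.4 to 1 (13.2 to 13.6) and 7.36 to 1 (7.28 to 7.44). The excess of the miR-23 hairpin over the miR-27 hairpin was larger on chromosome 8 than on chromosome 13 in each library, and larger in replicate 1 than in replicate 2 in each cluster. Mir27b exceeded Mir24-1 by 44.2 and 58.5 to 1, and Mir27a exceeded Mir24-2 by 6.15 and 8.68 to 1. Mir23b exceeded Mir24-1 by 591 and 431 to 1, and Mir23a exceeded Mir24-2 by 224 and 128 to 1. For each of these 6 ratios the exact intervals of the libraries did not overlap, so the ratios differed between the libraries by more than counting error.

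Between the libraries, the miR-27 and miR-24 hairpins of both clusters were higher in replicate 2, and the miR-23 hairpins of both clusters were higher in replicate 1. All 6 hairpins passed the two-sided exact binomial test after TMM scaling, with p-values adjusted by Benjamini-Hochberg over 412 tested genes at 0.05. Of all tested genes 45.4% passed, 22.6% as higher in replicate 2 and 22.8% as higher in replicate 1. Of the 134 genes with a mean of at least 100 CPM, a level that all 6 hairpins reach, 86.6% passed, so 6 of 6 lies near what genes of such depth gave. The test covers counting error between single libraries and says nothing of a condition.

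Mir27a had a log2 ratio (replicate 2 over replicate 1, with 1 CPM added) of 0.75 (95% exact interval 0.71 to 0.80, interval without the added CPM), or 1.69-fold higher in replicate 2. Mir27b had a log2 ratio of 0.71 (0.68 to 0.74), or 1.64-fold. Mir23a had a log2 ratio of -0.55 (-0.56 to -0.54), or 1.46-fold higher in replicate 1, and Mir23b one of -0.15 (-0.16 to -0.14), or 1.11-fold. For these 4 hairpins the adjusted p of the exact binomial test was at or below the reporting floor of 1e-100. Mir24-2 had a log2 ratio of 0.26 (0.14 to 0.38, adjusted p = 4.9e-05, exact binomial test) and Mir24-1 one of 0.30 (0.12 to 0.49, adjusted p = 0.0033, exact binomial test). The call for Mir24-1 was lost with scaling by total sense counts (log2 ratio 0.18, adjusted p = 0.0997, exact binomial test).

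**Figure D4:**
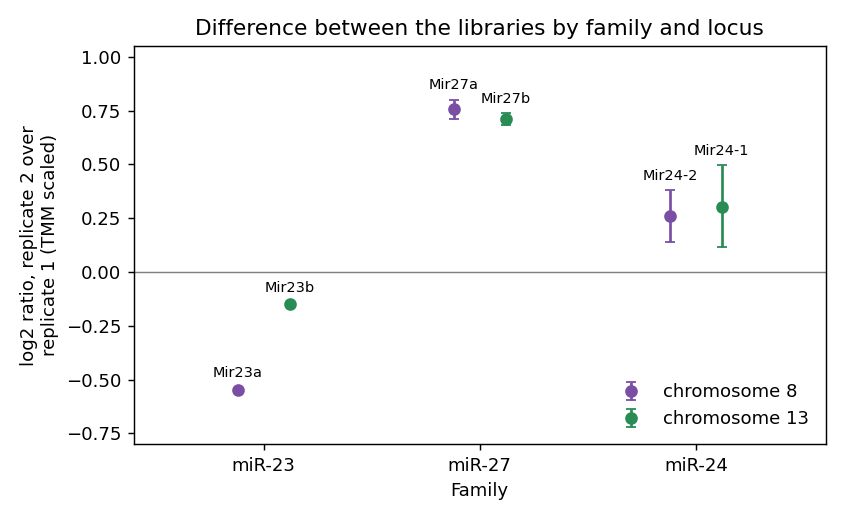
Log2 ratio of replicate 2 over replicate 1 after TMM scaling, by family and chromosome, with 95% exact binomial intervals that cover counting error only. Mir27a (0.75) and Mir27b (0.71) lie side by side, as do Mir24-2 (0.26) and Mir24-1 (0.30), while Mir23a (-0.55) and Mir23b (-0.15) are below 0 and apart from each other.

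The log2 ratios of paralogs on different chromosomes lay closer together than those of neighbours within a cluster. Mir27a and Mir27b differed by 0.044 on the log2 scale, Mir24-2 and Mir24-1 by 0.044, and Mir23a and Mir23b by 0.40. The 6 pairs of neighbours differed by 0.41 (Mir27b and Mir24-1) to 1.30 (Mir23a and Mir27a). These differences do not depend on how the libraries were scaled, apart from the added CPM. The widest paralog difference, 0.40, and the narrowest neighbour difference, 0.41, were nearly equal. Their order lies within counting error, as the interval of the log2 ratio of Mir24-1 runs from 0.12 to 0.49. Among the other genes of at least 100 CPM, 95 pairs of hairpins at separate loci that share a mature seed, made up of 45 genes, had a median difference of 0.20, with a range of 0.0060 to 3.44. There, 18 pairs of neighbours on 1 strand within 10 kb and with no seed in common, made up of 27 genes, had a median difference of 0.46, with a range of 0.11 to 1.38. The ranges overlapped, and the widest same-seed difference exceeded all of the neighbour differences. Pairs that share a gene are not independent, and no test was made.

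Against the spread of genes between the libraries, the 6 log2 ratios ranged in absolute size from below the lower quartile to above the upper quartile. The 134 genes of at least 100 CPM had a median absolute log2 ratio of 0.33, with quartiles of 0.16 and 0.68. By absolute size Mir27a ranked 30 and Mir27b ranked 32 of 134, both above the upper quartile. Mir23a ranked 44, Mir24-1 ranked 71, Mir24-2 ranked 81 and Mir23b ranked 102, the last below the lower quartile.

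**Figure D5:**
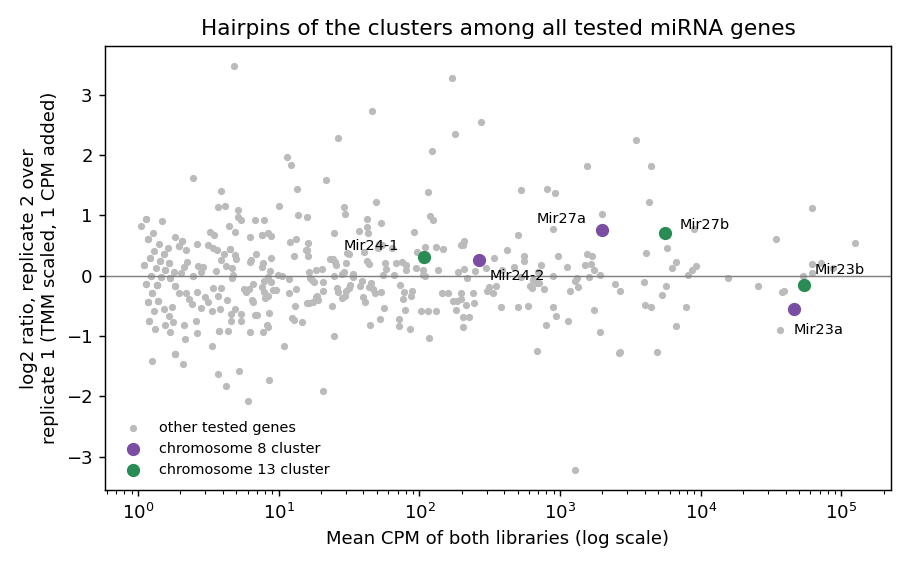
Log2 ratio of replicate 2 over replicate 1 (TMM scaled, 1 CPM added) against mean CPM (log axis) for 412 tested miRNA genes (grey), with the hairpins of the chromosome 8 and chromosome 13 clusters in colour. All 6 hairpins lie inside the cloud of other genes, and Mir27a (0.75) and Mir27b (0.71) are the 2 farthest from 0.

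Several abundant genes had log2 ratios close to those of the miR-23 hairpins. Among genes of at least 1000 CPM, the log2 ratios nearest to that of Mir23a were those of Mir125a (-0.52), Mir328 (-0.57) and Mir744 (-0.51). Nearest to Mir23b were Mir93 (-0.14), Mir26b (-0.16) and Mir652 (-0.17). In mean level, Mir99a at 39168 CPM and Mirlet7d at 52948 CPM were nearest to Mir23a, and Mirlet7d and Mirlet7i (61595 CPM) to Mir23b. With 2 libraries a shared ratio is a single value, and it carries no information on shared control.

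Other miRNA genes tied to blood vessel growth, 20 by name and 19 of them matched, did not move in a single direction. Of the 17 tested, 10 passed the test, 5 as higher in replicate 2 and 5 as higher in replicate 1. Over all tested genes 45.4% passed, and 86.6% of those at 100 CPM or more, so this count lies between the shares of the background. The median log2 ratio of the list was 0.0073, against -0.0077 for all tested genes. Those called with at least 1000 CPM were the endothelial Mir126a (87115 and 87787 CPM) and Mir10a (1434 and 1688 CPM), higher in replicate 2. Mir92-1 (1468 and 806 CPM), Mir221 (2986 and 2317 CPM) and Mir100 (6058 and 4473 CPM) were higher in replicate 1. A cardiac stress list had 23 genes, of which 22 were tested and 15 passed, 9 as higher in replicate 2 and 6 as higher in replicate 1. This count too lies between those background shares and says nothing particular of the list. Its median log2 ratio was 0.13. Those called with at least 1000 CPM were Mir195a, Mir21a, Mir499, Mir34a, Mir22 and Mir30a, higher in replicate 2, and Mir208a, Mir214, Mir29a and Mir155, higher in replicate 1. Mir34a had 8747 CPM in replicate 1 and 8608 CPM in replicate 2, and was higher in replicate 2 only after TMM scaling (log2 ratio 0.098).

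Few assigned reads came from the opposite strand of the clusters. Mir3074-2, opposite Mir24-2, had 0 sense counts in either library. At 3 counts, this allows a level of assigned reads of up to 0.771 CPM in replicate 1 and 0.593 CPM in replicate 2. It sets no limit on all reads of Mir3074-2. Reads within the 28 nt common to Mir24-2 and Mir24-1 fit both loci on either strand and could reach neither gene. Mir3074-1, opposite Mir24-1, had 41 counts in replicate 1 and 8 in replicate 2, or 10.5 and 1.58 CPM. It was higher in replicate 1 (adjusted p = 2.0e-07, exact binomial test), while Mir24-1 itself was higher in replicate 2. After TMM scaling, with 1 CPM added in each library, the fold was 4.19. At levels this low, the scaling and the added CPM make this fold smaller than the ratio of the printed levels. Mir23a, Mir27a, Mir23b, Mir27b and Mir24-2 had 0 opposite-strand counts in both libraries.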

How the data were processed

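MicroRNA-seq of total RNA, size range below 30 per the labels, gave 2 heart libraries, grouped by the labels. The deposited tables hold raw read counts per miRNA hairpin in 3 columns (no strand, and each strand) with 4 summary lines, on mm10 with GENCODE M21, per the file headers deposited with them. No aligner is given in the sources used here. The strand column with the larger total was taken as sense. Summary lines stayed out of totals and tests. Mature arms of a hairpin are not told apart. Reads are PCR products without recorded molecular identifiers, so intervals and floors (3 counts) cover counting error only.

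CPM, shares with 95% Clopper-Pearson intervals and ratios with exact conditional intervals were computed in Python 3.11.15 with scipy 1.17.1. Genes with a sum of at least 10 counts were tested by exact binomial test at TMM effective sizes (edgeR 4.0.16, R 4.3.3), which was also tested on simulated data, with Benjamini-Hochberg adjustment over all tested genes. With 1 group there was no contrast for a quasi-likelihood test. Named besides the 6 hairpins were overlapping miRNA genes, the 3 nearest by log2 ratio and 2 nearest in level to Mir23a and to Mir23b, and called list genes of at least 1000 CPM. The rule for the hairpins uses names alone, but hairpins, lists and tests were all chosen with earlier results of these data known. No genome was used, so arms were matched to 1005 RefSeq hairpins only.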

Additional observations from a re-analysis of the deposited data

Results flagged for a closer look

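Reads on the strand opposite Mir24-1, outside the sense counts used above, exceeded the 3 counts that a count of 0 allows. There were 41 in replicate 1 and 8 in replicate 2, and the same reads are the sense counts of Mir3074-1. No other hairpin of the clusters had a read assigned to its opposite strand, and no control library was there to compare with.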

How the results depend on the processing

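Of 34 recomputed log2 ratios, 33 kept their direction and their side of the threshold. The exception was Mir24-1, whose log2 ratio was 0.18 with total sense counts (adjusted p = 0.0997, exact binomial test), against adjusted p = 0.0033. With total sense counts 39.7% of all calls were higher in replicate 2, against 49.7%, and the median log2 ratio of tested genes was -0.12, against -0.0077. All 24 recomputed counts of calls stayed within 1.5-fold. All 11 shares and 14 ratios moved by less than 1 SD. For the 20 of those 25 that leave out a library this follows from n = 2, since each library lies within 1 SD of the mean. The other 5 used the column that ignores strand, where the miR-23 and miR-27 hairpins have the same counts, so none of the 25 was a test of stability.

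Levels depend on the column and the denominator. In the column that ignores strand, Mir24-2 and Mir24-1 were at 0 CPM, as reads over genes that overlap on both strands are not assigned there, so their shares, ratios and log2 ratios could not be recomputed. With the smaller total of that column Mir23a stood at 59844, Mir27a at 2598, Mir23b at 70640 and Mir27b at 7285 CPM. Scaled by all reads in the table, Mir23a stood at 16433, Mir27a at 705, Mir24-2 at 94.4, Mir23b at 19332, Mir27b at 1979 and Mir24-1 at 38.2 CPM. Per length, Mir24-2 stood at 191 and Mir24-1 at 122. Leaving out a library left no comparison between libraries. No paired analysis was possible because both libraries belong to 1 group. Depth limits the miR-24 hairpins most, at 389 to 1400 counts.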
